A study of Mus musculus with 6 samples.

Results

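The genes described here serve regulated secretion in endocrine and nerve cells. They are the granins Scg2, Scg3, Scg5, Chga and Chgb, the granule membrane proteins Ptprn and Ptprn2, the priming factor Cadps, the neuropeptide gene Qrfp and the processing enzyme Cpe. These 10 genes were taken by name from the 41214 genes in the count files. They were selected on their measured values in this comparison, since the counts of Scg2, Ptprn, Cadps and Qrfp were almost lost in 1 group. The difference between groups in the 10 genes is therefore a description, given without a test. The cells were NMuMG-derived mouse mammary tumour explant cells that express ErbB2. NMuMG cells were established from normal mammary gland epithelium of the mouse, and ErbB2 is a receptor tyrosine kinase. The control group carried a control hairpin (shCTL, genotype WT, 3 libraries) and the other a hairpin against CdGAP (shCdGAP, genotype CdGAP KD, 3 libraries). Explant cells and ErbB2 expression are common to both groups. Whether a group was 1 clone or a pool, and whether its replicates were separate cultures, is not given in the sources used here, so p-values reflect only how these libraries varied, which may be technical variation.

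Cells with regulated secretion pack hormones, neuropeptides and granins into dense-core granules and release them when calcium enters the cell. Granins are acidic proteins that aggregate in the trans-Golgi network with the cargo. Proprotein convertases and carboxypeptidase E then trim the prohormones, Cadps prepares docked granules for fusion, and SNARE proteins carry out the fusion. Mammary epithelium is not a classical site of this pathway and is better known for secreting milk. Regulators widely studied at these genes are REST, a repressor of neuronal genes in other tissues, and CREB, an activator that binds the cyclic AMP response element.

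Promoter sequences are shown first for the 4 genes that were almost lost and, for comparison, for Chgb. The windows are from RefSeq (build GRCm38.p6), in which 9 of the 10 genes had an entry, and 250 bases before the RefSeq start of each gene are printed 5′ to 3′ on the strand of the gene. Capitals mark TGACG on either strand, which is the core of the cyclic AMP response element. The positions are chr1:79440027-79440276 (minus strand) for Scg2, chr2:132781392-132781641 (plus) for Chgb, chr1:75264209-75264458 (minus, the first of 2 windows) for Ptprn, chr14:12823080-12823329 (minus) for Cadps and chr2:31810581-31810830 (minus) for Qrfp. RefSeq starts can differ from those of the Ensembl annotation used for the counts. The Ensembl start lies further upstream for Chgb and Ptprn, and for Scg2 it lies within the printed bases.
Scg2: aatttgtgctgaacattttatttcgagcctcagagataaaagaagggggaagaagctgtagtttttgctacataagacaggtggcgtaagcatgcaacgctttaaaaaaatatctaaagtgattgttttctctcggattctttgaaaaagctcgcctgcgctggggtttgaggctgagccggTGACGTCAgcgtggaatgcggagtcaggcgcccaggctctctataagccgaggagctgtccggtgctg
Chgb: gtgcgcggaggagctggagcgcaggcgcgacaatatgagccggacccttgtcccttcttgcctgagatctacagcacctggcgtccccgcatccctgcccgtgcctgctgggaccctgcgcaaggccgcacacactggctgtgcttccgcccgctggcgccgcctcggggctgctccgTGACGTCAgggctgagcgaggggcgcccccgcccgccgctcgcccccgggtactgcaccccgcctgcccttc
Ptprn: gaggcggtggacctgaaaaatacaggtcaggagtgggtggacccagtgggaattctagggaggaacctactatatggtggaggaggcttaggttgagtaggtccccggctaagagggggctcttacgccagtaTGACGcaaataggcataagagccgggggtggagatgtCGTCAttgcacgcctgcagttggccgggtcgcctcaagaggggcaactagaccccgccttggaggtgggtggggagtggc
Cadps: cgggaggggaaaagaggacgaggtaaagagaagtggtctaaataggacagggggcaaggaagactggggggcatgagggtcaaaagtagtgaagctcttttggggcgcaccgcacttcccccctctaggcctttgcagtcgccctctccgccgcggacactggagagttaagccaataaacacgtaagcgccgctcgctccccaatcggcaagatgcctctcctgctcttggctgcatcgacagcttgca
Qrfp: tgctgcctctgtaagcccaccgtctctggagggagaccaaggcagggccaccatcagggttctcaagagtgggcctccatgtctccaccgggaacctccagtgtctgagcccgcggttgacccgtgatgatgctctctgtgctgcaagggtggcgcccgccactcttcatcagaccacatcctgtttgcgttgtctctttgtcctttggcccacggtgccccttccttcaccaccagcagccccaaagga

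Motifs were searched on both strands over 300 bases, of which 250 lie before and 50 after the start. The full element TGACGTCA was present in Scg2, 68 bases before the start, and in Chgb, 72 bases before it. It occurred in 1.79% of the 32851 windows in the table. The shorter TGACG, which the full element contains on both strands, occurred in 20.8% of windows. It was found for Scg2, Scg3, Scg5, Chga, Chgb and Ptprn, and no match was found in the windows of Cadps, Qrfp and Ptprn2. Of the 4 almost lost genes, Scg2 and Ptprn thus carried the letters and Cadps and Qrfp did not. By the Ensembl starts, the full elements of Scg2 and Chgb lie inside the counted gene and not before it. Whether the letters bear on the counts was not tested. Scg2 and Ptprn2 also shared the 16-base run GCTGTCCGGTGCTGAA, which was present in 2 of the 32851 windows. Its reverse complement holds TTCAGCACC (0.371% of windows) directly followed by GGACAGC (6.56% of windows), with no base between them. These letters match the left part and the start of the right part of the element that REST binds. With this spacing they are not read here as a complete element. In Scg2 these letters lie within the last 20 bases before the start and its first bases. In Ptprn2 they lie after the start. The letters CAGGTG, an E-box of the kind that Zeb proteins bind, were found for Scg2, Scg5, Chga and Chgb, against 20.2% of windows. TATAAA was found for Chga alone among these genes (13.6% of windows), and GGGCGG was found for Scg5, Chga, Chgb, Ptprn and Ptprn2 (35.7% of windows). For Ptprn, which had 2 windows, GGGCGG lay in the second, which is not printed, and TGACG in the first. The shares are per window. GC content over the printed bases was 48% for Scg2 and 72.8% for Chgb, with 59.2%, 58% and 60.8% for Ptprn, Cadps and Qrfp. A match is a description of the sequence, and binding was not measured.

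The libraries held between 19176540 and 26824249 assigned fragments. Levels are given as CPM, the share of the TMM-scaled library total in parts per 1000000, on which a single count (1) amounted to 0.0364 to 0.0516 CPM. For a gene at 0 counts the upper limit was 0.109 to 0.155 CPM (3 counts), and this covers counting error only. Replicate 1 of shCdGAP stood apart from its group. The chi-square per degree of freedom over genes was 159 and 207 between it and the other 2 shCdGAP libraries, against 14.2 between those 2. Within shCTL, replicate 1 also stood apart, to a smaller degree. Its values were 28.0 and 29.0 against replicates 2 and 3, which gave 3.17 between them. Arhgap31, which encodes CdGAP and is the target of the hairpin, was at 13.2, 14.4 and 15.1 CPM in shCTL and 1.70, 9.15 and 8.20 CPM in shCdGAP. The groups did not overlap, and the log2 fold change was −1.16 ± 0.55 (SE; adjusted p = 0.190, edgeR). Without shCdGAP replicate 1 it was −0.71 (adjusted p = 0.00407).

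Scg2 encodes secretogranin II, the precursor of secretoneurin, and was the granin with the most counts (chr1:79434669-79440120, GRCm38). Its counts were 287, 403 and 349 in shCTL and 1, 1 and 0 in shCdGAP. The shCTL libraries were at 14.8, 14.7 and 13.1 CPM (14.2 ± 0.929, SD, n = 3). The shCdGAP libraries were at 0.0447, 0.0453 and 0 CPM. The 3 shCTL libraries lay close together and every shCdGAP library was at or under the level of a single count. The ratio of the summed levels was 493 (exact 95% interval 136 to 4073), and the fitted log2 fold change was −8.70 ± 0.41. In bulk RNA, fewer cells of a type and less RNA per cell cannot be told apart, and how the control signal was spread over cells was not measured.

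The other granins were near or at 0 in both groups. Scg5, which encodes 7B2, the chaperone of the convertase PC2, had 0, 5 and 9 counts in shCTL and 0, 2 and 2 in shCdGAP (chr2:113776362-113829121). The ratio of its summed levels was 3.32 (interval 1.04 to 13.8), and the groups overlapped. Chgb (chr2:132781278-132795079), the granin chromogranin B, had 2, 0 and 0 counts in shCTL and 1, 0 and 0 in shCdGAP. Scg3 (chr9:75643264-75683996), which tethers granins to granule membranes, and Chga (chr12:102554969-102565027), which encodes chromogranin A, had no count in any of the 6 libraries. The granin signal of the control cells was therefore that of Scg2, with the summed level of all 5 granins at 14.9, 14.8 and 13.5 CPM in shCTL and 0.0893, 0.136 and 0.0792 CPM in shCdGAP. Absence of counts sets an upper limit at this depth.

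Ptprn encodes IA-2, a receptor-type phosphatase without activity that spans the granule membrane (chr1:75247027-75264502). Its counts were 3481, 3517 and 3458 in shCTL and 38, 66 and 109 in shCdGAP. The control libraries were at 179, 128 and 130 CPM (146 ± 29.2, SD, n = 3), with replicate 1 the highest. In shCdGAP the values were 1.70, 2.99 and 4.32 CPM (3.00 ± 1.31, SD, n = 3). The exact 95% Poisson intervals of shCdGAP replicates 1 and 3 were 1.20 to 2.33 and 3.55 to 5.21 CPM, so these libraries differed by more than counting error. The log2 fold change was −5.59 ± 0.38, and Ptprn was the only one of the 4 almost lost genes that stayed above 1 CPM in shCdGAP. Its relative Ptprn2, which encodes IA-2β (chr12:116485720-117276849), had no count in any library.

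Cadps encodes CAPS1, which acts in granule priming (chr14:12372563-12823079). Its counts were 363, 730 and 608 in shCTL and 3, 4 and 4 in shCdGAP. The control values were 18.7, 26.5 and 22.9 CPM (22.7 ± 3.92, SD, n = 3), and the shCdGAP values 0.134, 0.181 and 0.158 CPM. The lowest control library was far above every shCdGAP library, and the shCdGAP libraries had overlapping Poisson intervals. The ratio of summed levels was 147 (interval 81.7 to 294), and the log2 fold change was −7.12 ± 0.26. Its paralog Cadps2 had 0, 1 and 1 counts in shCTL and 0 in each shCdGAP library.

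Qrfp encodes the precursor of the RF-amide peptide 26RFa, a ligand of the receptor Qrfpr (chr2:31806166-31810580). Its counts were 717, 904 and 962 in shCTL and 4, 3 and 6 in shCdGAP. This gave 37.0, 32.9 and 36.2 CPM for shCTL (35.3 ± 2.17, SD, n = 3). For shCdGAP it gave 0.179, 0.136 and 0.238 CPM, and the groups did not overlap. The ratio of summed levels was 188 (interval 110 to 354), and the log2 fold change was −7.53 ± 0.22. The receptor gene Qrfpr had 2, 0 and 1 counts in shCTL and 0 in each shCdGAP library. RNA of the ligand gene was thus present in the control cells, with RNA of the receptor gene at the limit of detection. The peptide was not measured.

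Cpe encodes carboxypeptidase E, which removes basic residues from prohormone fragments and also acts as a sorting receptor (chr8:64592558-64693040). Its counts were 5890, 9275 and 8893 in shCTL and 12039, 6891 and 8508 in shCdGAP. The shCTL libraries lay at 304, 337 and 334 CPM (325 ± 18.6, SD, n = 3). Those of shCdGAP lay at 538, 312 and 337 CPM (396 ± 124, SD, n = 3). The groups overlapped, and shCdGAP replicate 1 was the one library above the others. The log2 fold change was 0.28 ± 0.22 with all libraries and 0.01 without shCdGAP replicate 1.

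**Figure D1:**
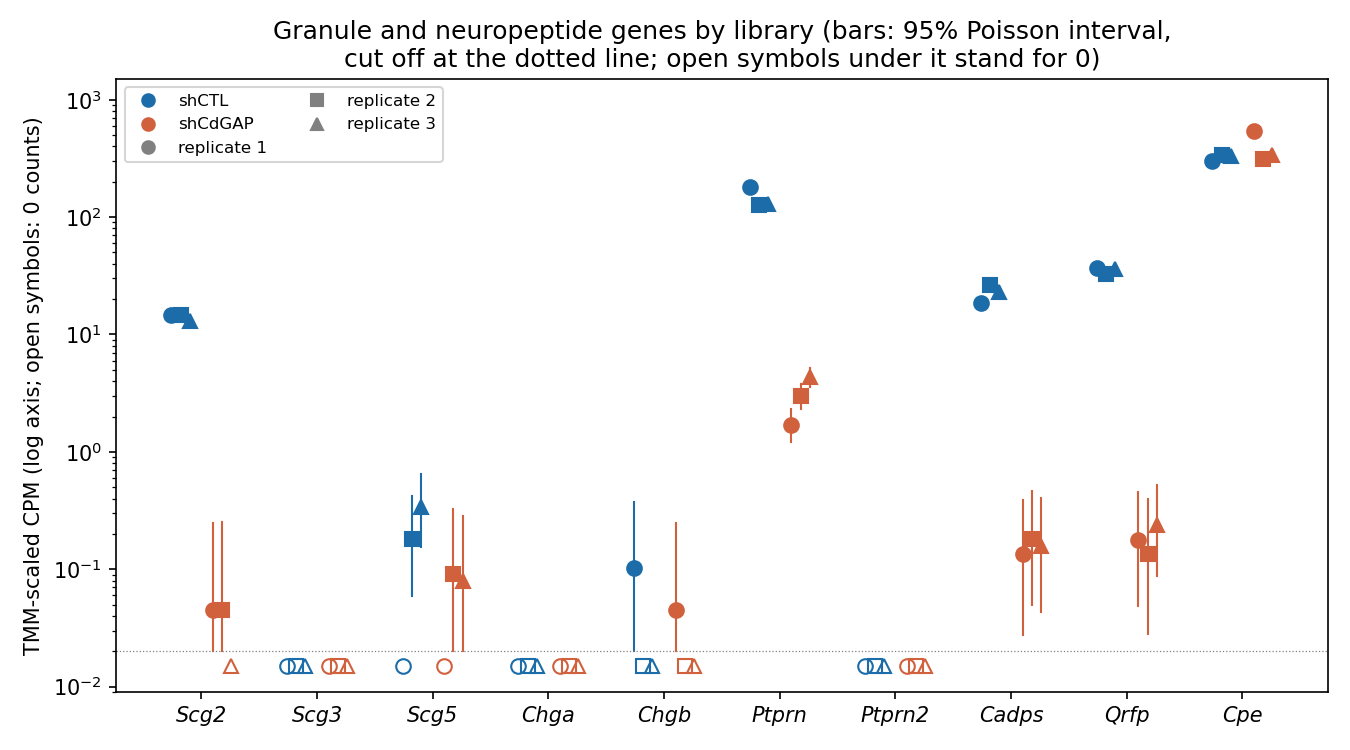
Level of each of the 10 genes in each library, in TMM-scaled CPM on a log axis, with shCTL in blue and shCdGAP in orange, symbols for the replicates and bars for the exact 95% Poisson interval, cut off at the dotted line. Open symbols below that line stand for 0 counts. Scg2, Ptprn, Cadps and Qrfp separated by group, Cpe did not, and Scg3, Chga and Ptprn2 were at 0 in all 6 libraries.

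Of the 10 genes, 5 passed the filter on low counts (Scg2, Ptprn, Cadps, Qrfp and Cpe). Of these, 4 were at least 8-fold lower in shCdGAP. Over all 13483 tested genes, 405 (3.00%) were at least 8-fold lower and passed the test. Their groups did not overlap, as for 22.4% of tested genes in this direction. Nothing is read from these counts, since the choice of the genes used this contrast. With each library left out in turn, log2 fold changes ran from −9.08 to −8.14 for Scg2, −5.95 to −5.29 for Ptprn, −7.26 to −6.99 for Cadps, −7.76 to −7.36 for Qrfp and 0.01 to 0.43 for Cpe. The 4 genes differed among themselves in what was left. Ptprn had 213 counts over the 3 shCdGAP libraries, against 13 for Qrfp, 11 for Cadps and 2 for Scg2.

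Levels scaled for transcript length (TPM, computed from the gene lengths in the files) give the order of the genes within a group. In shCTL the order was Cpe at 450 ± 31.4 TPM, Ptprn at 98.9 ± 18.4 TPM, Qrfp at 34.8 ± 1.77 TPM, Scg2 at 16.3 ± 1.03 TPM and Cadps at 11.8 ± 2.18 TPM (SD, n = 3). No neighbours among these 5 overlapped over the 3 libraries. Scg5 (0.321 TPM) and Chgb (0.0357 TPM) followed and overlapped with each other and with the 3 genes at 0. In shCdGAP, Cpe at 503 ± 143 TPM was followed by Ptprn at 1.89 ± 0.828 TPM, with no overlap between them. Qrfp (0.167 TPM), Scg5 (0.0978 TPM) and Cadps (0.0758 TPM) came next, and each overlapped with its neighbour in that order. Scg2, which lay above Cadps in shCTL, lay below it in shCdGAP at 0.0320 TPM, without overlap, although these values rest on 2 and 11 counts.

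The rest of the secretory pathway was followed with 7 lists of other genes (298 genes found, 128 tested). Of the 128, 21 rose and 19 fell, which is 16.4% and 14.8%, against 10.4% and 11.4% of all tested genes. The median log2 fold change was 0.02, beside 0.01 over all tested genes. At least 8-fold differences were found for 4 genes that rose and 8 that fell (1.43% and 3.00% of all tested genes in these classes), and 67 of the 298 genes had no count in any library. The counts moved when single libraries were left out. Each such fit also had fewer replicates, and this was not told apart from the part of the library itself. Without shCdGAP replicate 1 the counts were 28 higher and 37 lower. Without shCTL replicate 1, 2 or 3 the higher counts were 12, 11 and 11, and the lower counts 16, 12 and 12. Adjusted p-values below are from edgeR's quasi-likelihood test, adjusted over the 13483 genes.

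Among 16 tested genes of prohormone processing, 2 rose and 5 fell, with a median log2 fold change of −0.42. Resp18, a granule lumen protein gene and the direct neighbour of Ptprn, fell from 1.76 ± 0.227 to 0.0994 ± 0.0474 CPM (log2 fold change −4.07 ± 0.38, adjusted p = 0.00103). Its counts were 36, 53 and 40 in shCTL and 3, 1 and 3 in shCdGAP. The lysosomal protease cathepsin L (Ctsl) fell from 1622 ± 63.1 to 907 ± 155 CPM (adjusted p = 0.00977), a call lost without shCTL replicate 2 (adjusted p = 0.0503). Cpz, Pcsk6 and Pcsk4 also fell, each with an adjusted p above 0.05 in 4 or more leave-one-out fits. With the replicate number as a block, the calls of Cpz and Pcsk4 were lost too (adjusted p = 0.0659 for each). The membrane carboxypeptidase Cpm rose from 1.71 ± 0.490 to 7.71 ± 2.34 CPM (adjusted p = 0.00582). Mbtps1, the site-1 protease, rose from 104 ± 3.85 to 156 ± 16.9 CPM (adjusted p = 0.0146), a call that did not survive the removal of shCTL replicate 1, 2 or 3 (adjusted p = 0.0587, 0.0696 and 0.0720). The convertases most tied to endocrine granules were hardly present: Pcsk1 had no count and Pcsk2 had 1 count over the 6 libraries. The ubiquitous convertase gene Furin was at 227 CPM in shCTL and 263 CPM in shCdGAP (adjusted p = 0.240), and the amidating enzyme gene Pam at 366 and 245 CPM (adjusted p = 0.0734).

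Genes of granule biogenesis and cargo sorting showed 4 higher and 2 lower of 29 tested, with a median log2 fold change of 0.05. The sorting receptor gene Sorcs2 fell from 10.5 ± 0.668 to 0.545 ± 0.139 CPM (adjusted p = 0.000232, log2 fold change −4.26 ± 0.24). Sort1, which encodes sortilin of the same receptor family, rose from 9.26 ± 1.05 to 36.4 ± 7.59 CPM (adjusted p = 0.00126, log2 fold change 1.97 ± 0.19). These 2 relatives thus changed in opposite directions. Bace2, an aspartic protease, fell from 17.3 ± 3.11 to 9.15 ± 2.51 CPM (adjusted p = 0.0408, and 0.0824 with the replicate number as a block). Ccdc186, Vti1a and Vps52, which act in trafficking between the Golgi and endosomes, rose with log2 fold changes of 0.45, 0.77 and 0.38. These 4 calls were each lost in at least 3 leave-one-out fits, and that of Vps52 also with the block (adjusted p = 0.0701).

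Docking, priming and calcium-triggering genes moved both ways, with 5 higher and 4 lower of 23 tested. Those that fell were Rims2, a scaffold of release sites (6.60 ± 0.637 to 1.78 ± 0.552 CPM, adjusted p = 0.00445), Unc13c, a Munc13 family gene (2.21 ± 0.646 to 0.515 ± 0.143 CPM, adjusted p = 0.00785), Rab37 and Syt17. Those that rose were Anxa13, an annexin of epithelial apical traffic (68.2 ± 5.21 to 377 ± 63.4 CPM, adjusted p = 0.000291), Sytl4, Sytl2, Exph5 and Unc13b. Sytl4, which encodes the Rab27 effector granuphilin, had 2 counts in shCTL and 47 in shCdGAP, a ratio of levels of 24.8 (interval 6.49 to 211; adjusted p = 0.00226). The Munc13 genes thus moved apart, with Unc13b rising from 20.8 to 49.3 CPM and Unc13c falling. The Syt17 call was lost in all but 1 of the leave-one-out fits.

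Exocytic SNARE and exocyst genes, which are used in all cells, showed small differences, with 4 higher and 1 lower of 32 tested and a median log2 fold change of 0.08. Vamp3 fell from 111 ± 7.38 to 65.4 ± 10.7 CPM (adjusted p = 0.0139). Exoc6 rose from 57.0 ± 3.29 to 85.9 ± 5.99 CPM (adjusted p = 0.00994), and Stxbp3 from 48.9 ± 2.60 to 70.0 ± 7.54 CPM (adjusted p = 0.0255). Exoc3 and Exoc4 rose by 0.48 and 0.35 on the log2 scale. None of these 5 calls held in every leave-one-out fit, and Stxbp3 and Exoc4 also lost theirs with the replicate block (adjusted p = 0.0566 and 0.0679). The neuronal SNARE gene Snap25 had 1 count over the 6 libraries.

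Voltage-gated calcium channel genes, whose products open the path for the triggering calcium, showed 4 higher and 1 lower of 7 tested. The β subunit gene Cacnb2 fell from 32.0 ± 4.12 to 5.30 ± 0.0844 CPM (adjusted p = 0.000233). The pore gene Cacna1e rose from 0.0887 ± 0.0603 to 3.58 ± 1.32 CPM (6 and 245 counts, adjusted p = 0.00144) and Cacna1g from 1.35 ± 0.323 to 7.84 ± 0.943 CPM (adjusted p = 0.00127). Cacna1a rose from 3.54 to 6.53 CPM and Cacna1b from 0.221 to 0.623 CPM, with calls lost in 3 and 4 of the leave-one-out fits. The Cacna1b call was also lost with the replicate block (adjusted p = 0.0502), with DESeq2 (adjusted p = 0.0604) and with no filter on low counts (adjusted p = 0.0631).

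Of 74 other neuropeptide and peptide hormone genes, 34 had no count in any library and 14 were tested. Among the 14, 2 rose and 4 fell. Edn1, the endothelin-1 gene, rose from 0.533 ± 0.248 to 16.2 ± 2.86 CPM (log2 fold change 4.88 ± 0.35, adjusted p = 0.000446). Apela, a ligand of the apelin receptor, had 3 counts in shCTL and 56 in shCdGAP (ratio 19.7, interval 6.40 to 98.3; adjusted p = 0.00500). Apln, which encodes apelin, the other ligand of that receptor, fell from 7.31 ± 1.98 to 2.10 ± 0.144 CPM (adjusted p = 0.00440). Pthlh, the gene of parathyroid hormone-related protein, had 48 counts in shCTL and 1 in shCdGAP (ratio 45.5, interval 7.79 to 1835; adjusted p = 0.00477). Adm2 and Ucn2 fell as well, from 3.05 to 0.134 CPM and from 0.907 to 0.175 CPM. The Adm2 call was lost without shCdGAP replicate 2 (adjusted p = 0.0575), and the Ucn2 call without shCTL replicate 2 or 3 (adjusted p = 0.0655 and 0.0516). Among 68 peptide receptor genes, 7 were tested and 2 fell. Calcrl, the receptor for adrenomedullin and related peptides, fell from 11.8 ± 5.08 to 0.428 ± 0.0963 CPM (adjusted p = 0.000809), and Cckbr from 1.32 ± 0.109 to 0.0830 ± 0.0795 CPM (adjusted p = 0.00602).

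**Figure D2:**
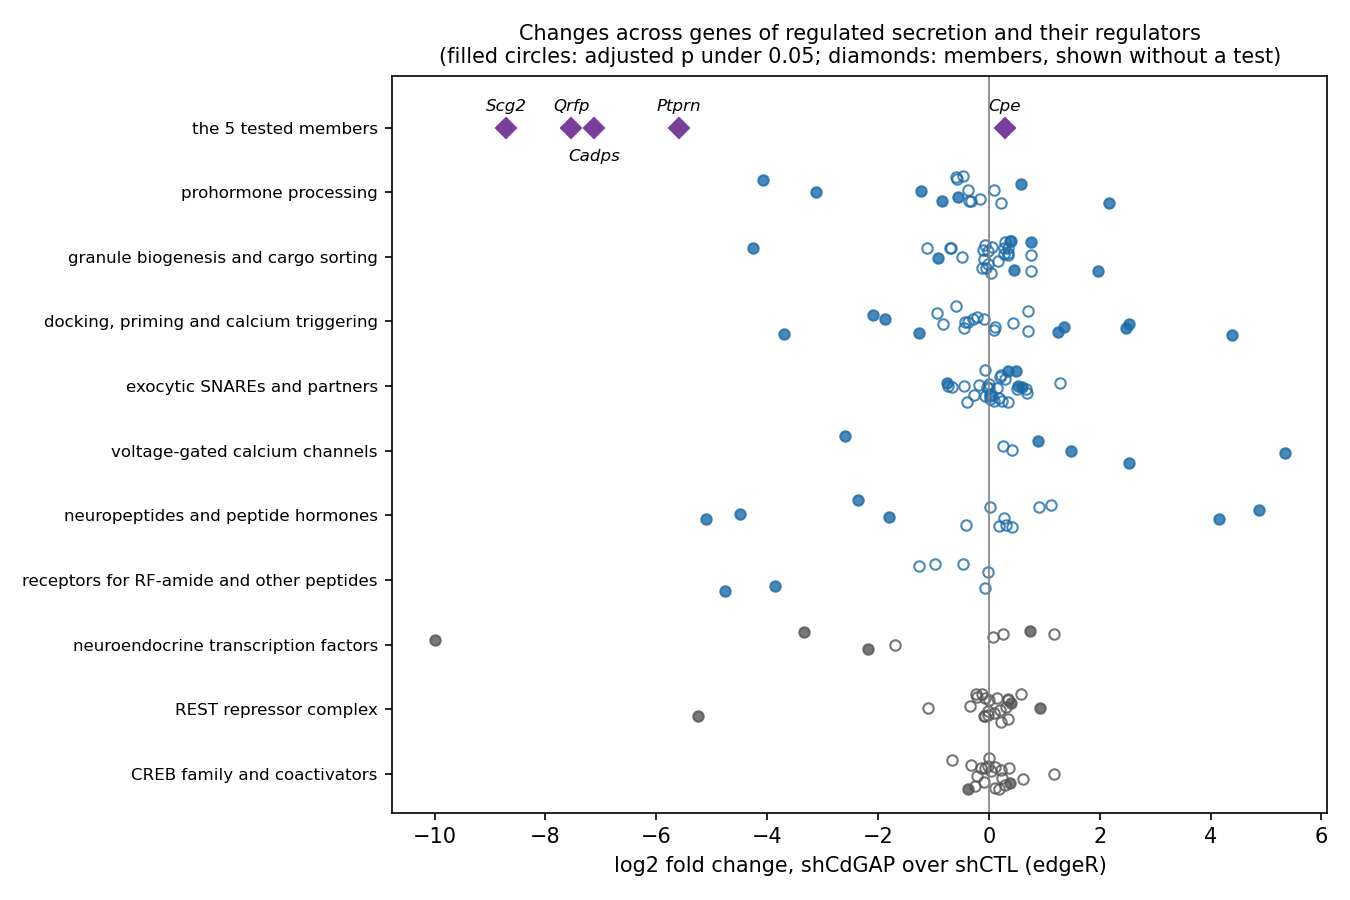
Log2 fold change (shCdGAP over shCTL) of the tested genes of each list, with filled circles for adjusted p under 0.05 and diamonds for the 5 tested genes of the chosen set, shown without a test. Scg2, Qrfp, Cadps and Ptprn lay between −8.70 and −5.59, while the medians of the SNARE and biogenesis lists were 0.08 and 0.05.

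Transcription factors known from neuroendocrine cells were mostly low, and 8 of 36 could be tested. Lmx1a fell from 14.9 ± 1.08 to 1.48 ± 0.117 CPM (adjusted p = 0.000179) and Foxa1 from 32.2 ± 5.88 to 7.11 ± 1.14 CPM (adjusted p = 0.00103). Nkx6-1, a factor of endocrine pancreas, fell from 376 counts to 0 (adjusted p = 0.00248), and its level was at least 119-fold lower against a floor of 3 counts over the shCdGAP group. Foxa2 rose from 48.2 ± 4.66 to 80.7 ± 9.48 CPM (adjusted p = 0.0104), a call lost without shCTL replicate 2 (adjusted p = 0.0579). Insm1 and Neurod1, which direct endocrine and neural differentiation, had 3 counts and 1 count over the 6 libraries.

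The genes of REST and CREB were read as the best studied regulators. Rest was at 73.7, 66.3 and 59.1 CPM in shCTL and 68.3, 55.0 and 58.6 CPM in shCdGAP, with overlapping groups (log2 fold change −0.13 ± 0.14, adjusted p = 0.550). Of 23 genes of the REST complex and its partners, all tested, 2 rose and 1 fell, with a median log2 fold change of 0.01, beside 10.4% and 11.4% of all tested genes. Without shCdGAP replicate 1 these counts were 5 and 4. The one that fell was Srrm4, a neural splicing factor known to act on Rest transcripts, with 55 counts in shCTL and 1 in shCdGAP (ratio 52.2, interval 8.98 to 2097; adjusted p = 0.00303). Ctdspl, a small phosphatase that partners REST, rose from 33.2 ± 3.06 to 62.6 ± 2.97 CPM (adjusted p = 0.00309). Ehmt2, a histone methyltransferase, rose from 186 ± 6.99 to 247 ± 9.75 CPM (adjusted p = 0.0230), a call lost in 5 of the leave-one-out fits. In the CREB family and its coactivators, 1 of 21 rose and 1 fell, at a median of 0.04, and without shCdGAP replicate 1 the counts were 5 and 5. Creb1 was at 62.7 CPM in shCTL and 71.5 CPM in shCdGAP (adjusted p = 0.421). The 2 called genes were Crebbp (40.6 ± 1.09 to 31.1 ± 0.761 CPM, adjusted p = 0.0396) and Prkaca (87.4 ± 4.61 to 114 ± 9.21 CPM, adjusted p = 0.0451). Both calls were lost in 5 leave-one-out fits and with the replicate block (adjusted p = 0.0670 and 0.0510).

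Nearby genes were compared to see whether the chosen genes lay in wider regions of lower counts. Next to Ptprn, Dnajb2 lies 1335 bp away and had a log2 fold change of −0.00 (adjusted p = 0.993), while Resp18, 7697 bp away on the other side, fell as given above. Next to Qrfp, Abl1 (1939 bp) had −0.03 (adjusted p = 0.891) and Lamc3 (76711 bp) −1.29 (adjusted p = 0.232, and 0.0402 with the replicate block). The tested neighbours of Cadps, 3830406C13Rik (69332 bp) and Thoc7 (1125935 bp), had 0.36 and 0.10 (adjusted p = 0.157 and 0.495). Those of Scg2 were Utp14b (763157 bp) at −0.43 and Ap1s3 (166756 bp) at −0.52 (adjusted p = 0.0876 and 0.0578). Ap1s3 passed with DESeq2 (adjusted p = 0.0179) and without shCdGAP replicate 1 (adjusted p = 0.0265), and Utp14b with the replicate block (adjusted p = 0.0458). Windows of 500 kb to each side of the gene starts, a width chosen after values were seen, held 46 tested genes. Of these, 5 lay around Scg2, 24 around Ptprn, 12 around Qrfp, 5 around Cpe and 0 around Cadps. Of the 46, 2 rose, 8 fell and 36 did not pass, against 10.4% higher and 11.4% lower over all tested genes. Serpine2, with a log2 fold change of −3.71, was the one called gene around Scg2, and Golga2 at −0.39 the one around Qrfp. Around Ptprn, Slc4a3, Tmem198, Chpf, Resp18 and Slc23a3 fell and Wnt10a rose among 24 tested genes. Around Cpe, BC030870 fell and Apela rose. The calls of Golga2, Tmem198, Slc23a3, Wnt10a and BC030870 did not hold in every leave-one-out fit. Under the replicate block those of Golga2, Tmem198 and Wnt10a were lost as well (adjusted p = 0.0716, 0.0525 and 0.0590).

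**Figure D3:**
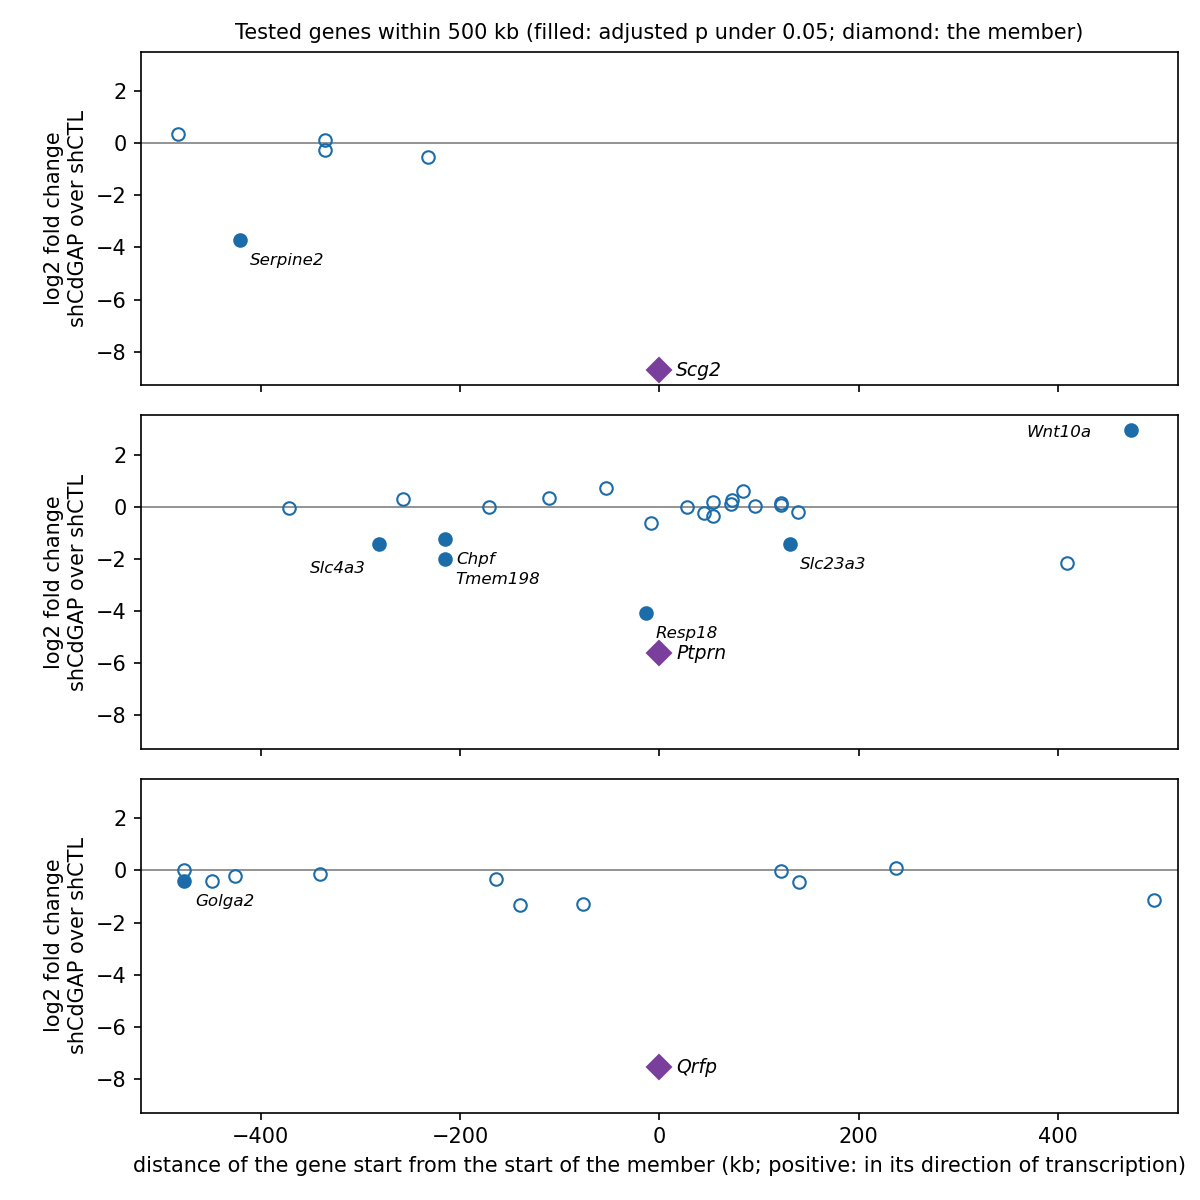
Log2 fold change (shCdGAP over shCTL) of tested genes around Scg2, Ptprn and Qrfp against the distance of their starts in kb, positive in the direction of transcription, with filled circles for adjusted p under 0.05. Most genes near the diamonds lay around 0, and Resp18 at −4.07 lay beside Ptprn at −5.59.

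Genes whose profile over the 6 libraries was most like that of each lost gene were found by the root mean square difference of centred log2 CPM. For Scg2 these were Slitrk5 (0.33), Erfe (0.35) and Cadps (0.36). For Ptprn they were Adgrg3 (0.15), 8030451A03Rik (0.24) and Ndst3 (0.32). For Cadps they included Erfe (0.14) and Cgas (0.31), and for Qrfp they were Procr (0.26), Cdh19 (0.26) and Irs1 (0.30). Cadps was thus among the closest to Scg2, while no other pair of the chosen genes was named this way. Such profiles mostly follow the group difference by which these genes were chosen. Closeness therefore describes a similar size of loss, and no link between the genes is read from it.

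Markers of other cell types were read beside these results, and their part in them was not tested. Of 38 neuronal and neuroendocrine markers, 10 had no count in any library, among them Th, Dbh, Slc18a2, Stmn2 and the neurofilament genes Nefl, Nefm and Nefh. Their summed level was 69.4 to 85.2 CPM in shCTL and 52.3 to 78.4 CPM in shCdGAP, so the ranges overlapped. Of 9 tested, 2 rose and 3 fell (22.2% and 33.3%), against 10.4% and 11.4% of all tested genes. Slc17a6, a vesicular glutamate transporter gene, fell from 22.2 ± 3.77 to 0.330 ± 0.184 CPM (log2 fold change −6.05 ± 0.40, adjusted p = 0.000346). Tph2, a serotonin synthesis gene, had 164 counts in shCTL and 2 in shCdGAP (ratio 77.8, interval 21.2 to 648; adjusted p = 0.00178), and Map2 fell from 24.5 to 8.72 CPM. Ddc, the decarboxylase of amine synthesis, rose from 0.399 ± 0.148 to 6.51 ± 3.40 CPM (adjusted p = 0.00314). Sv2a rose from 1.08 to 2.89 CPM, and the calls of Sv2a and Map2 were each lost in 4 leave-one-out fits.

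The mammary label was checked in the same way. Summed mammary epithelial markers were at 5942 to 8445 CPM in shCTL and 7239 to 11092 CPM in shCdGAP, with Cldn3, Cldn7, Pgr and the milk protein genes Csn2, Lalba and Wap at 0 in all libraries. Of 11 tested, 3 rose and 4 fell (27.3% and 36.4%), against 10.4% and 11.4% of all tested genes. Cdh1 (232 ± 51.4 to 767 ± 85.3 CPM, adjusted p = 0.00193) and Ehf (0.304 ± 0.203 to 70.0 ± 21.0 CPM, adjusted p = 0.000291) were among those that rose. The casein gene Csn3 (24.4 ± 3.47 to 2.13 ± 0.454 CPM, adjusted p = 0.000313) and Krt5 (100 and 2 counts, adjusted p = 0.00138) were among those that fell. The epithelial adhesion gene Epcam fell from 92 counts to 0 (at least 29.1-fold lower against 3 counts over the group, adjusted p = 0.00344), and the estrogen receptor gene Esr1 from 79 counts to 3 (ratio of levels 24.97, interval 8.24 to 124; adjusted p = 0.00423). Fibroblast markers summed to 5.45 to 6.55 CPM in shCTL and 3.45 to 7.10 CPM in shCdGAP (2 of 10 tested, 0 called, with Lum and Thy1 at 0). Col1a1 and Pdgfra were the 2 tested, with adjusted p = 0.123 and 0.299, and Pdgfra passed without shCdGAP replicate 1 (adjusted p = 0.00809). Immune markers summed to 167 to 175 CPM and 107 to 201 CPM, with Adgre1 and Nkg7 at 0 and Itgam rising from 0.213 to 1.41 CPM (adjusted p = 0.00788). These sums came from few genes, since 3 of 10 had a mean of at least 1 CPM in shCTL and 4 in shCdGAP. Endothelial markers summed to 2.17 to 2.33 CPM in shCTL and 0.136 to 0.759 CPM in shCdGAP, with Cldn5 and Emcn at 0 and Tek, at 31 and 0 counts, the one called gene (adjusted p = 0.00586, and 0.0547 with the replicate block). Tek was tested in only 3 of the leave-one-out fits, and its call held in these. Adipocyte markers summed to 6.29 to 6.81 CPM and 1.54 to 3.53 CPM, with Plin1 at 0 and Fabp4 and Cidec lower (adjusted p = 0.0169 and 0.0381, with Cidec at 0.0778 under the block, and both lost in 3 or more leave-one-out fits). Muscle markers stayed between 0.218 and 0.619 CPM, with none tested. The summed levels of the endothelial and adipocyte lists thus moved in the same direction as Scg2, Ptprn, Cadps and Qrfp, at lower levels than any of the 4 in shCTL.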

How the data were processed

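RNA was sequenced from 6 libraries (3 shCTL, 3 shCdGAP). The deposited values were raw counts of fragments per gene, made by the authors with featureCounts 1.4.6 on the Ensembl release 77 annotation, per the file headers, with strand setting 2, so antisense genes were counted apart. The submitters' processing notes list build GRCm38 and the tools TopHat2 2.0.14, Trimmomatic 0.30, CASAVA 1.8, DESeq and Cuffdiff 2.2.1. Gene symbols matched 40254 of 41214 gene IDs.

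The counts were tested with edgeR 4.0.16 in R 4.3.3 (filterByExpr with minimum count 10 and minimum total 15, TMM scaling, quasi-likelihood F test over all 6 libraries, Benjamini-Hochberg adjustment over 13483 genes, called at an adjusted p under 0.05). The SE of a log2 fold change is its size divided by the square root of F. CPM are TMM-scaled, TPM use the gene lengths of the files, and values are mean ± SD with n = 3. A group with 0 counts was set to 3 counts for a lower bound, and with few counts in a group the ratio has an exact 95% binomial interval. Intervals cover counting error only. The edgeR steps were tested on simulated data.

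The chosen genes and all lists were picked with earlier results of these data known. Named were the chosen genes, Arhgap31, up to 2 risen and 2 fallen genes per list by p (or the 2 most abundant), the nearest tested neighbours and the 3 most alike genes. Some named genes are not reported here. Genes named beyond this rule, such as Cpz, Rab37, Nkx6-1, Epcam, Esr1, Rest, Furin and those in the windows, and the motifs, were chosen after their values or sequences were seen. No libraries were merged, since even the most alike, replicates 2 and 3 of shCTL, differed by more than sampling noise (chi-square over degrees of freedom 3.17). Same-numbered libraries of the groups correlated at 0.36, 0.29 and 0.25 in their deviations from the group means, so the numbers were taken as pairs. Crossed numbers 2 and 3 correlated at 0.19 and 0.25, so the data do not set these 2 pairs apart. Replicate 1 of either group correlated at −0.35 to −0.26 with replicates 2 and 3 of the other. The pairing rests on the data alone, and the main test does not use it. Alternatives were RLE size factors, no filter, DESeq2 1.42.0, the replicate block and leaving out each library.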

Additional observations from a re-analysis of the deposited data

How the results depend on the processing

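Over all genes, 1396 were higher and 1534 lower. Leaving out 1 library gave 538 to 2753 higher and 856 to 3032 lower, with the highest counts without shCdGAP replicate 1 and the lowest without shCTL replicate 2. In the secretion lists the 21 higher and 19 lower genes ran from 11 to 28 and from 12 to 37. In the 3 transcription factor lists the 4 higher and 5 lower genes ran from 2 to 12 and from 4 to 13, again highest without shCdGAP replicate 1, and DESeq2 gave 8 higher. With the replicate block, 1277 and 1468 of all genes and 19 and 20 of the secretion genes were called. RLE size factors (1419 and 1546) and no filter (1316 and 1636) stayed within 1.5 times. Of 94 other genes followed, 55 kept their side of the threshold in every alternative and 39 did not. No called gene changed direction. Dnajb2 and Abl1, which were not called, changed sign between leave-one-out fits (−0.07 to 0.11 and −0.14 to 0.03). The cause of these differences was not tested. Levels of a few counts, such as those of Scg2, Cadps and Qrfp in shCdGAP, are limited by depth.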
